A study of Mus musculus with 48 samples.

Results

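Meclizine, an antihistamine that blocks the histamine H1 receptor, was compared with vehicle in STHdhQ111 cells, a conditionally immortalized line of striatal progenitors from mice in which both alleles of huntingtin carry the expanded mutant repeat. The comparison rests on 6 of the 48 RNA-Seq samples of the series, 3 with meclizine at 10 µM and 3 with the vehicle DMSO, taken by their sample labels. All cells were kept for 24 hours in serum-free medium, and samples 1, 2 and 3 with meclizine, vehicle, haloperidol or pizotifen were collected on days 1, 2 and 3. Vehicle and meclizine samples each held every collection time once, but on a given day their times differed, whereas the 3 samples with haloperidol at 0.5 nM share both the day and the time with meclizine. Haloperidol therefore served as a further control, and diacylglycerol kinase inhibitor II (DKI, 10 µM) and pizotifen (5 µM) were set beside meclizine as other compounds of the same screen. DKI samples 1, 2 and 3 were collected on days 3, 2 and 3, so none came from day 1. For a comparison of whole responses the series also gave STHdhQ111 cells with cyproheptadine (10 µM, collected on the same days as DKI) and 9 further compounds, and vehicle-treated STHdhQ7 cells, the line with huntingtin of normal repeat length. These compounds were loxapine and selisistat at 10 µM, cysteamine at 250 µM, sodium butyrate at 1 mM, 4-deoxypyridoxine at 4 mM, fingolimod phosphate at 250 nM, trichostatin A at 10 nM, nortriptyline at 1 nM and nicotinamide, labelled 0.5 nM. Each genotype of the series is 1 cell line, so the values describe this line. The labels do not say that samples of a group came from separately thawed cultures. The p-values therefore measure the spread between samples within groups, pooled over all 48 samples of the series.

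Cells that lack amino acids, accumulate unfolded protein or have damaged mitochondria phosphorylate the translation factor eIF2α, which lowers protein synthesis in general but raises translation of the transcription factor ATF4. ATF4, with partners of the C/EBP family, switches on genes for amino acid import and synthesis, tRNA charging, folate metabolism in mitochondria, and regulators such as CHOP and TRIB3. Meclizine is known to lower mitochondrial respiration and to inhibit PCYT2, an enzyme of phosphatidylethanolamine synthesis, which is why the genes of these pathways were read member by member.

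The deposited table names no unit, and its values were read as log2 abundance from their range, so that a difference of 1 is a doubling and differences between groups are given as log2 fold changes. If the values were shrunken logarithms, the folds printed here would understate the change, more so for genes with low values. A gene was called where limma, fitted to all samples with the collection day as a term, gave an adjusted p under 0.05. Meclizine changed 3589 of 13409 genes tested against vehicle (26.8%), of which 1763 were higher and 1826 lower. Against haloperidol 3448 genes were called (25.7%). In the same direction against both controls, 2829 genes were called (21.1%), of which 1434 (10.7%) were higher and 1395 (10.4%) lower. The words rose and fell below refer to these 2829 genes unless a control is named. Counts of rises and falls in a list are to be read beside the shares of 10.7% and 10.4%. The meclizine samples did not overlap the vehicle samples in 40.5% of the genes tested and the haloperidol samples in 42.1%, so a gap between groups is common here. Haloperidol against vehicle gave 0 calls by limma, and 397 genes were under an unadjusted p of 0.05. Most changes were small. Over 1 on the log2 scale, 50 genes lay above vehicle and 1 below it. RNA was taken from whole cultures, so fewer cells of a kind and less RNA per cell cannot be told apart.

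A few libraries stood apart. Haloperidol replicate 2 lay more than 1 above both other haloperidol samples in 21 genes, among them Acta2, which stood at 4.75, 8.53 and 5.42, and Nes, a progenitor gene, at 4.88, 7.14 and 5.03. Without it, 2460 genes were called against both controls. Vehicle replicate 1 lay more than 1 above both other vehicle samples in 5 genes and more than 1 below them in 2. Without vehicle replicate 1, 2226 genes were called against both controls. Meclizine replicate 2 stood apart in 0 genes by this measure, but was the least changed of the meclizine samples in 55.3% of the genes compared. Over the 2829 genes called against both controls, the median absolute change from the vehicle sample of the same day, without its sign, was 0.365, 0.262 and 0.293 in meclizine replicates 1, 2 and 3. Without meclizine replicate 2, 2628 genes were called against both controls, beside 1948 without meclizine replicate 1 and 2253 without meclizine replicate 3. Of 8 progenitor markers 7 reached the minimum level. Their list mean in vehicle was 7.12, with Vim at a mean of 15.42 and Notch1 at 8.05. Of 9 markers of striatal projection neurons 2 reached the minimum level, Ppp1r1b at 1.93 and Penk at 2.46, and Drd1 stood at -2.18. Markers of other cells were mixed. Of 6 neuronal markers 3 reached the minimum, with Map2 at 8.40 and Rbfox3 at -2.13, and Tubb3, at 4.52, rose by 0.45. Of 6 astrocyte markers 4 did, with Gja1 at 10.28, Slc1a3 at 7.21 and Gfap at -0.95. Of 6 microglial markers 2 did, with Tmem119 at 7.45, which fell by 0.52, and Aif1 at -2.18. Of 6 fibroblast and mural markers 4 did, with a list mean of 7.93 in vehicle, and 1 of them, Pdgfrb, fell. Pdgfrb lost its call against vehicle without meclizine replicate 2 (-0.18, adjusted p = 0.19) and with quantile normalization (-0.20, adjusted p = 0.0751). The progenitor markers Notch1 and Vim fell, Notch1 by 0.40 (adjusted p = 0.00387). Vim lost its call against vehicle without meclizine replicate 2 (-0.21, adjusted p = 0.0597). The part of cell composition in the results was not tested.

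ATF4 targets and regulators were among the genes with the largest rises. Trib3 encodes a pseudokinase induced by CHOP and lies on chromosome 2 from 152337422 to 152344032 on the minus strand of GRCm38. It stood at 7.06, 6.96 and 6.83 in vehicle, at 6.97, 7.23 and 7.06 with haloperidol and at 9.91, 9.25 and 9.74 with meclizine. No meclizine sample overlapped a control sample, and the rise of 2.68 (SE 0.209, adjusted p = 3.03e-12) is 6.42-fold. Against haloperidol it was 2.54 (adjusted p = 1.05e-11). Ddit3, which encodes CHOP, went from 8.99, 9.03 and 9.08 in vehicle to 10.85, 10.29 and 10.58, a rise of 1.54 (SE 0.125, adjusted p = 7.79e-12). Meclizine replicate 2 was the lowest of the meclizine samples in both genes and still lay above every control sample. Atf4 itself (chromosome 15, 80255184 to 80257541, plus strand) stood at 10.81, 10.95 and 10.97 in vehicle, 10.98, 10.97 and 10.98 with haloperidol and 12.18, 12.07 and 12.11 with meclizine, a 2.3-fold rise (1.20, SE 0.0899, adjusted p = 1.29e-12).

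Of 19 stress regulators of this pathway tested, 14 rose and 1 fell, with a median of 0.91 against vehicle and 0.89 against haloperidol, beside medians of -0.0037 and -0.003 over all genes tested. The counts were the same without meclizine replicate 2 and without haloperidol replicate 2. Chac1, an enzyme that degrades glutathione, rose by 1.79 (adjusted p = 3.92e-12), and the secreted glycoprotein gene Stc2 rose by 1.45. Atf3, a transcription factor gene of the same family, stood at 7.2, 7.06 and 7.24 in vehicle and at 8.53, 8.57 and 8.68 with meclizine. Ppp1r15a, whose product GADD34 directs the phosphatase that resets eIF2α, rose by 1.26, and the transcription factor genes Atf5, Cebpb and Cebpg rose by 1.18, 0.91 and 0.62. Of the kinases that phosphorylate eIF2α, Eif2ak3 (PERK) differed from vehicle by 0.00 (adjusted p = 0.996) and Eif2ak1 (HRI) by -0.12 (adjusted p = 0.0702). Eif2ak4 (GCN2) was called lower against vehicle alone, at -0.17, and Eif2ak2 (PKR) fell by 0.34. Both secreted stress hormones tested rose, Gdf15 by 1.10 (adjusted p = 1.26e-07) and Fgf21 by 0.55.

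**Figure D1:**
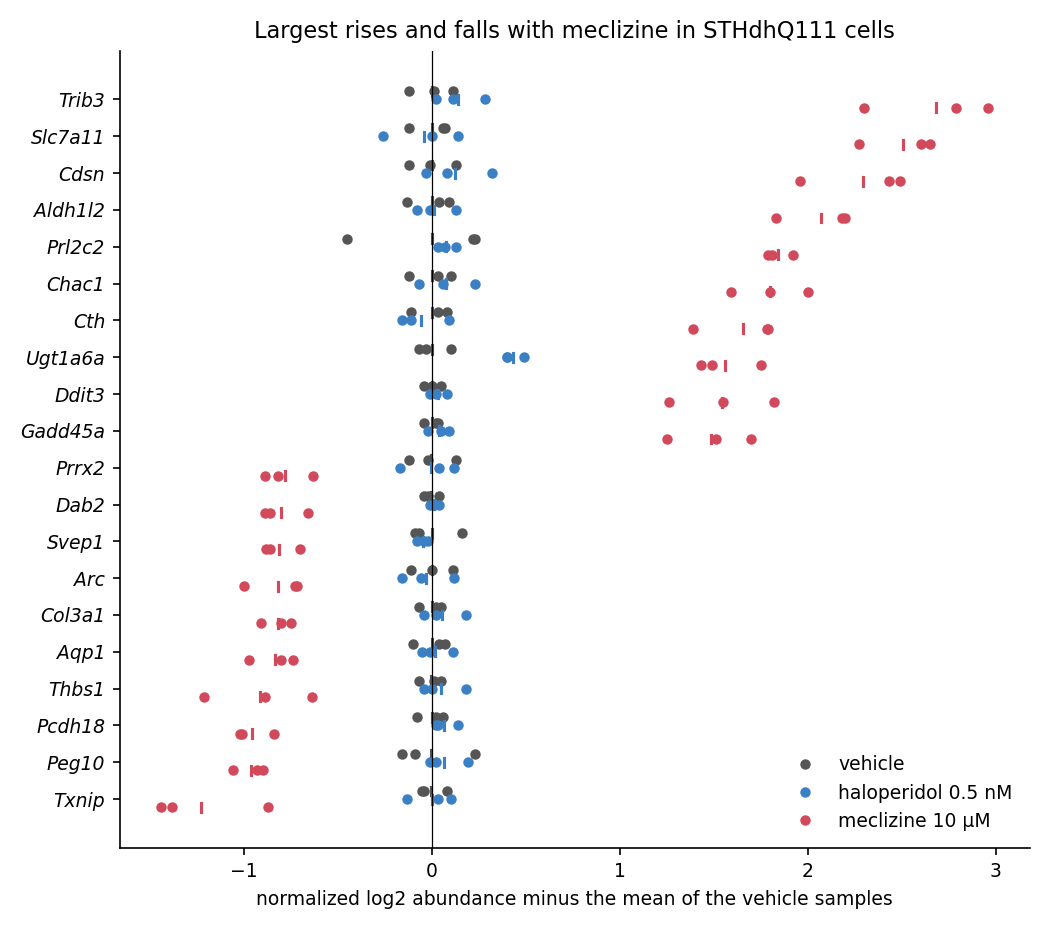
Normalized log2 abundance minus the mean of the vehicle samples for the 10 genes with the largest rises and the 10 with the largest falls, with 1 point per sample for vehicle, haloperidol and meclizine and a tick at each group's mean. Trib3 is 2.68 above vehicle and Txnip 1.23 below it, and the haloperidol samples lie near the vehicle samples for most genes.

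Promoters of genes in this program are shown here because dimers of ATF4 and C/EBP proteins are known to bind the pattern TGATGNAA, in which N is any base. The pattern was searched on both strands in the 250 bases before the RefSeq start (GRCm38.p6) of genes in 5 lists, namely stress regulators, amino acid transporters, amino acid synthesis, folate metabolism and cytosolic tRNA synthetases. Of 57 members that rose, 43 had a window and 12 of these held the pattern (27.9%). Beside them, 246 of the 10081 genes tested that had a window held it (2.44%), and 1134 of 32851 windows in all (3.45%). Among the other tested members, 24 had a window and none of these held an exact match. The lists were made of known genes of this program, with earlier results of these data known. Their higher share is a description and not a test. Of the 12 genes with a match, those with the largest rises against vehicle are printed below. Left out are Tars, Got1, Aars, Nupr1 and Jdp2, which rose by 0.81, 0.51, 0.51, 0.4 and 0.33. Trib3, Ddit3, Aldh1l2 and Cth, whose rises were among the largest in these lists, had no window or no match. The stretches below read 5′ to 3′ on the strand of the gene, with the match in capitals, which appears as TTNCATCA where it lies on the other strand.
Chac1 (chr2:119351029-119351076, plus strand): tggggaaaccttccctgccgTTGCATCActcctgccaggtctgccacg
Atf3 (chr1:191183416-191183463, minus strand): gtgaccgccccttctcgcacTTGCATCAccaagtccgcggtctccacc
Vldlr (chr19:27216800-27216847, plus strand): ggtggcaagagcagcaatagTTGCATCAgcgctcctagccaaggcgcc
Slc7a11 (chr3:50443633-50443699, minus strand): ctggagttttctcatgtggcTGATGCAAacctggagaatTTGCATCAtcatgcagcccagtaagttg
Asns (chr6:7693210-7693252, minus strand): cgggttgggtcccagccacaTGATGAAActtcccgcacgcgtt
Pycr1 (chr11:120643824-120643871, minus strand): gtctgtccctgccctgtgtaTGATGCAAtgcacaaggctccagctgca
Gars (chr6:55037951-55037998, plus strand): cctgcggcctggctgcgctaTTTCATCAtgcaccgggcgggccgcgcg
Slc7a11 holds the pattern at 66 and 47 bases before its start, once on each strand, and Asns holds it 23 bases before its start. The match in Chac1 lies 193 bases and that in Atf3 110 bases before the start. A match is a run of letters, not a measured binding site.

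Amino acid import and synthesis moved with these regulators. Slc7a11, which encodes the cystine and glutamate exchanger and holds the pattern on both strands, lies on chromosome 3 from 49892526 to 50443614 on the minus strand. It stood at 6.24, 6.25 and 6.06 in vehicle, 6.18, 6.32 and 5.92 with haloperidol and 8.83, 8.45 and 8.78 with meclizine. The groups did not overlap, and the rise was 2.51 (SE 0.231, adjusted p = 1.53e-10), 5.69-fold. Its partner chain Slc3a2 rose by 1.16, the large neutral amino acid carrier Slc7a5 by 1.23 and the glycine transporter Slc6a9 by 1.18. Of 15 amino acid transporters tested, 10 rose and 1, Slc43a2, fell (-0.22), with a median of 0.57 against vehicle and 0.43 against haloperidol.

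Asns, the asparagine synthetase, went from 9.4, 9.45 and 9.51 in vehicle to 11, 10.77 and 10.9 with meclizine, a rise of 1.44 (SE 0.109, adjusted p = 2.12e-12). Of 18 enzymes of amino acid synthesis tested, 10 rose and the others did not pass against both controls. They include Pycr1, the last enzyme of proline synthesis (1.33), Psph and Phgdh of serine synthesis (1.19 and 0.66) and Cth, which makes cysteine from cystathionine (1.65, adjusted p = 2.4e-10). Glul, the glutamine synthetase, differed from vehicle by -0.02 and Cbs, the enzyme before Cth, by -0.09.

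Folate enzymes of the mitochondrion rose further than those of the cytosol in these values. Aldh1l2, which oxidizes formyl tetrahydrofolate in mitochondria, went from 8.29, 8.24 and 8.07 in vehicle to 10.38, 10.03 and 10.4 (2.07, SE 0.146, adjusted p = 5.36e-13). Mthfd2, Shmt2 and Mthfd1l, also mitochondrial, rose by 1.25, 1.22 and 0.91, and their cytosolic counterparts Mthfd1 and Shmt1 by 0.18 and 0.31. The difference between the compartments was not tested. In this list 7 of 14 rose, and 5 without meclizine replicate 2.

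Cytosolic tRNA synthetases rose in 16 of 20 members, with a median of 0.53 against vehicle and 0.54 against haloperidol. Nars, Gars, Wars and Eprs, which charge asparagine, glycine, tryptophan and glutamate with proline, rose by 0.86 to 0.89. The members that did not pass were Farsa, Hars, Qars and Kars, at 0.07, 0.06, -0.01 and -0.09. The mean of the list was 10.45, 10.40 and 10.42 in the vehicle samples and 11.01, 10.87 and 10.92 in the meclizine samples. Of 17 mitochondrial tRNA synthetases 2 rose and 1 fell, beside 10.7% and 10.4% of all genes, with a median of 0.08 against vehicle.

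Chaperones of the endoplasmic reticulum (ER) changed less. Hspa5, the ER chaperone BiP, stood at 12.66, 12.71 and 12.71 in vehicle and at 13.37, 13.38 and 13.27 with meclizine, a rise of 0.65 (SE 0.0841, adjusted p = 2.31e-07). Of 23 genes of ER folding and degradation, 9 rose and 1, the ubiquitin ligase gene Syvn1, fell (-0.19). Herpud1, Hyou1 and Dnajb9 rose by 0.54, 0.45 and 0.44, while the chaperone genes Calr and Pdia4 differed from vehicle by 0.09 and 0.02. Of 13 mitochondrial chaperones and proteases 7 rose, led by Hspa9 (0.89, adjusted p = 1.92e-10), the protease Lonp1 (0.72) and the chaperonins Hspd1 and Hspe1 (0.68 and 0.56). The cytosolic heat shock list divided, with 2 of 12 higher, 3 lower and a median of -0.01 against vehicle. The chaperones Hspa8 and Hsp90ab1 each rose by 0.16, and the inducible chaperone Hspa1b, the small heat shock protein Hspb1 and the cochaperone Bag3 fell by 0.44, 0.29 and 0.26. Neither rise was called without haloperidol replicate 2 or with quantile normalization, and 2 members were lower without meclizine replicate 2. Hspb1 lost its call against vehicle without meclizine replicate 1, 2 or 3, and without vehicle replicate 1 or 3. Without meclizine replicate 2 it was at -0.27 (adjusted p = 0.0839).

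Nuclear respiratory chain genes showed few calls. The 36 nuclear complex I subunits tested had a median of 0.04 against vehicle and 0.07 against haloperidol. Of 24 subunits of complexes II to IV, 2 rose, Uqcrq by 0.39 and Cyc1 by 0.21, and 1, Sdha, fell by 0.19. Uqcrq and Cyc1 lost their calls without meclizine replicate 1, at 0.33 (adjusted p = 0.0585) and 0.20 (adjusted p = 0.0649). The 13 proteins encoded by mitochondrial DNA had means of 13.02, 13.06 and 13.11 in the vehicle samples, 13.24, 13.38 and 13.16 in the haloperidol samples and 12.7, 13.08 and 12.69 in the meclizine samples. Their median was -0.18 against vehicle and -0.47 against haloperidol, and meclizine replicate 2 lay among the vehicle samples. Against vehicle 1 of them was called lower and against haloperidol 4, with no gene common to both, whereas without meclizine replicate 2, 3 were lower against both controls and the median against vehicle was -0.31. Libraries were selected for polyadenylated RNA, so mitochondrial transcripts are measured through their short tails.

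**Figure D2:**
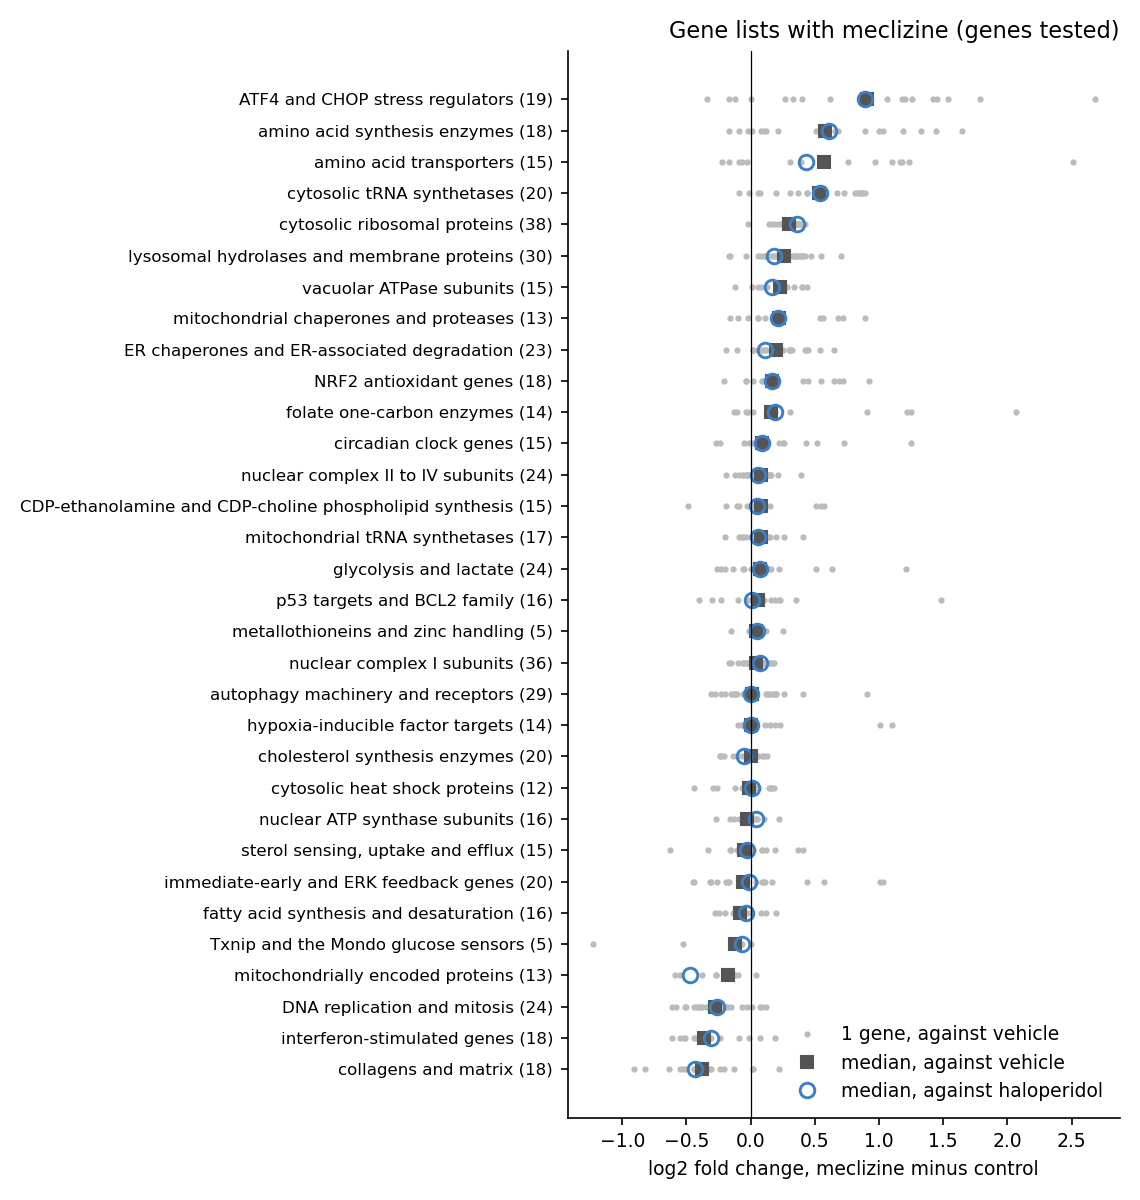
Log2 fold change of meclizine for each gene list with at least 5 genes tested. Grey points are genes against vehicle, squares the list's median against vehicle and circles its median against haloperidol, and stress regulators lie highest with medians of 0.91 and 0.89.

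The deepest of the leading falls was that of a gene of glucose uptake. Txnip, whose product binds thioredoxin and restrains glucose uptake, lies on chromosome 3 from 96557957 to 96561883 on the plus strand. It stood at 10.56, 10.55 and 10.68 in vehicle, 10.63, 10.47 and 10.7 with haloperidol and 9.16, 9.73 and 9.22 with meclizine. All meclizine samples lay below all control samples, the highest of them being replicate 2, and the level was 42.6% of vehicle (-1.23, SE 0.108, adjusted p = 5.88e-11). Its relative Arrdc4, also controlled by the glucose sensor MondoA, fell by 0.53. Hexokinase 2, Hk2, rose from 7.52, 7.42 and 7.33 to 8.61, 8.72 and 8.58 (1.21, adjusted p = 1.4e-08). The glucose carrier Slc2a1 and the lactate carrier Slc16a1 rose by 0.51 and 0.63. The glycolysis list held 4 rises and 2 falls in 24 genes, beside 10.7% and 10.4% of all genes. Ldha and Pkm, which act at the end of glycolysis, differed from vehicle by -0.00 and -0.06. Of 14 genes of the hypoxia list 2 rose, beside 10.7% of all genes, namely Ero1l by 1.10 and Vegfa by 1.01. Both are also known as stress genes of the ER and of ATF4, and what raised them was not tested. Hif1a was at 0.15 (adjusted p = 0.107).

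Lysosomal genes rose in larger numbers with smaller steps. Of 30 lysosomal hydrolases and membrane proteins tested, 15 rose and 1 fell against both controls, beside 21.1% of all genes, with medians of 0.26 against vehicle and 0.18 against haloperidol. Ctsl, the protease cathepsin L, stood at 12.22, 12.21 and 12.2 in vehicle and at 12.96, 12.93 and 12.85 with meclizine (0.70, SE 0.0635, adjusted p = 9.81e-11). Gla, α-galactosidase, rose by 0.55, Naglu by 0.47 and the calcium channel Mcoln1 by 0.42, while Smpd1, acid sphingomyelinase, fell by 0.17. Of 15 subunits of the proton pump of the lysosome, 9 rose, with Atp6v0b at 0.44. The autophagy list divided, with 7 of 29 higher and 3 lower. The autophagy receptor Sqstm1 went from 12.75, 12.69 and 12.77 to 13.77, 13.44 and 13.74 (0.91, adjusted p = 9.04e-10), the initiating kinase Ulk1 fell by 0.28, and Map1lc3b, which encodes LC3, differed from vehicle by 0.02 (adjusted p = 0.822). Tfeb, a transcription factor of lysosomal genes, fell by 0.31, and by 0.28 without vehicle replicate 1 (adjusted p = 0.056).

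Antioxidant genes known as targets of NRF2 rose in 9 of 18 members. They include heme oxygenase Hmox1 (0.92, adjusted p = 1.06e-07), Srxn1 (0.69) and the ferritin chain Fth1 (0.65). Nqo1, a defining target, was at 0.16 against vehicle (adjusted p = 0.192) and Gclm at -0.04. Of the 5 metallothionein and zinc genes tested, Slc39a10, a zinc importer, came nearest to a call (0.25, adjusted p = 0.327 by limma). Slc7a11 and Sqstm1, which stand in other lists here, are known as targets of NRF2 too.

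Genes of DNA replication and mitosis fell. Of 24 tested, 16 fell and 1 rose, with medians of -0.28 against vehicle and -0.26 against haloperidol, and without haloperidol replicate 2 the count of falls was 13. Plk1, the kinase of mitotic entry, stood at 9.86, 9.77 and 9.82 in vehicle and at 9.24, 9.3 and 9.09 with meclizine (-0.61, SE 0.071, adjusted p = 2.98e-08). Mki67, the proliferation marker, fell by 0.58, cyclin A2 by 0.51 and topoisomerase Top2a by 0.50. The helicase gene Mcm2 rose by 0.12 and Pcna differed from vehicle by 0.01. The list's mean was 10.52, 10.46 and 10.49 in vehicle and 10.18, 10.34 and 10.17 with meclizine, so replicate 2 lay closest to the controls. The list of p53 and BCL2 family genes held 2 rises and 3 falls in 16, beside 10.7% and 10.4% of all genes. Without meclizine replicate 2 it held 2 rises and 1 fall. Sesn1 fell by 0.40, while the p53 target Cdkn1a was at 0.03 against vehicle.

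Collagens and other matrix genes fell in 10 of 18 members and rose in 1, with medians of -0.38 and -0.43. Col3a1 and Col1a1, chains of fibrillar collagens, fell by 0.82 (adjusted p = 6.32e-06) and 0.55, and Cyr61, a matrix signalling gene driven by YAP and serum response factor, by 0.64. Thbs1, the matrix glycoprotein thrombospondin, stood at 14.81, 14.77 and 14.69 in vehicle and at 13.87, 14.12 and 13.55 with meclizine (-0.91, adjusted p = 4.04e-06). Peg10, an imprinted gene derived from a retrotransposon, fell from 12.46, 12.07 and 12.14 to 11.33, 11.17 and 11.3. Fn1, fibronectin, differed from vehicle by 0.02. Other falls among the leading genes were the protocadherin Pcdh18 (-0.96), the water channel Aqp1 (-0.84), the immediate-early gene Arc (-0.82), the matrix gene Svep1 (-0.81), the endocytic adaptor Dab2 (-0.80) and the homeobox gene Prrx2 (-0.77).

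Immediate-early genes and feedback genes of ERK signalling divided, with 4 of 20 higher and 5 lower. Dusp4, a phosphatase that inactivates ERK, and Myc rose by 1.03 and 1.01, and Egr1 and Egr2 fell by 0.45 and 0.44. Without meclizine replicate 3, Egr1 was -0.27 against haloperidol (adjusted p = 0.108). With quantile normalization 3 members of the list were lower, and without meclizine replicate 2, 2 were higher and 6 lower. Interferon-stimulated genes fell in 3 of 18 members, beside 10.4% of all genes, namely Ifit1 by 0.61, Ifit3 by 0.55 and Ddx58 by 0.44. These were no longer called without meclizine replicate 2, with Ifit1 then at -0.56 (adjusted p = 0.0641). Clock genes rose in 6 of 15 members and fell in 2. Ciart, a repressor of the clock, rose by 1.25 against vehicle and by 1.27 against haloperidol, whose samples were collected in the same slots, and Cry1 rose by 0.52.

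Cytosolic ribosomal proteins rose in 32 of 38 members tested, with medians of 0.30 and 0.36. Their mean was 12, 12.2 and 12.37 in the vehicle samples, 12.23, 12.03 and 12.09 in the haloperidol samples and 12.57, 12.35 and 12.53 in the meclizine samples. Meclizine replicate 2 lay below vehicle replicate 3 on this measure, although it lay above the vehicle sample of its own day. The list's median change from the same-day vehicle sample was 0.56, 0.2 and 0.17 in meclizine replicates 1, 2 and 3. It was largest where the vehicle mean was lowest. Against the same-day haloperidol sample it was 0.31, 0.32 and 0.44. Rps18 rose by 0.42 (adjusted p = 0.000166). Without haloperidol replicate 2, 26 members were called. Ribosomal protein genes have many near-identical pseudogenes, so reads may be shared between copies.

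**Figure D3:**
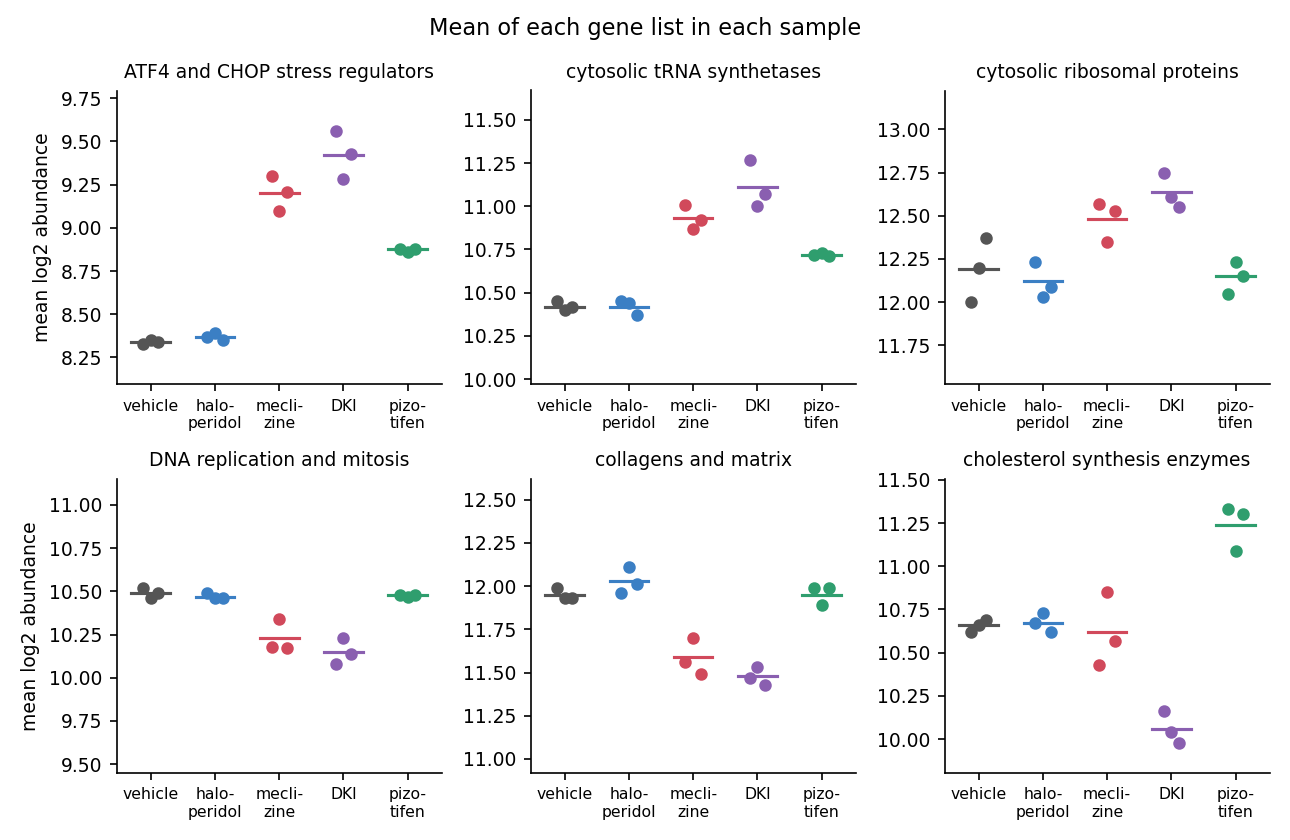
Mean normalized log2 abundance of 6 gene lists in each sample of vehicle, haloperidol, meclizine, DKI and pizotifen. Stress regulators are at 9.1 to 9.3 with meclizine, 8.33 to 8.35 with vehicle and 8.86 to 8.88 with pizotifen.

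Cholesterol synthesis separated meclizine from the compounds beside it. Of 20 enzymes tested, 2, Hmgcs1 and Mvk, fell (-0.23 and -0.24), the median was 0.00 against vehicle and -0.05 against haloperidol, and the others did not pass against both controls. Hmgcs1, which makes the HMG-CoA that enters the pathway, stood at 12.4, 12.4 and 12.32 in vehicle, 12.39, 12.4 and 12.36 with haloperidol and 11.87, 12.41 and 12.14 with meclizine. Meclizine replicate 2 lay at the level of the controls and replicate 1 lowest, and without replicate 1 the change was -0.09 (adjusted p = 0.462), while that of Mvk was -0.20 (adjusted p = 0.112). Without meclizine replicate 2, 6 enzymes were lower against both controls, and without haloperidol replicate 2, 0 were. With DKI the same gene stood at 11.4, 11.27 and 11.21 and with pizotifen at 12.92, 12.63 and 12.86. Meclizine was thus between the 2 compounds in every sample, apart by 0.85 from DKI (95% interval 0.69 to 1.01, adjusted p = 7e-09) and by -0.66 from pizotifen (-0.82 to -0.50, adjusted p = 1.87e-07). Of the 20 enzymes, 19 were higher with meclizine than with DKI, beside 3.8% of all genes, and all 20 were lower than with pizotifen, beside 7.97% of all genes. The mean of the enzymes was 10.62, 10.66 and 10.69 with vehicle, 10.43, 10.85 and 10.57 with meclizine, 10.16, 10.04 and 9.98 with DKI and 11.33, 11.09 and 11.3 with pizotifen.

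**Figure D4:**
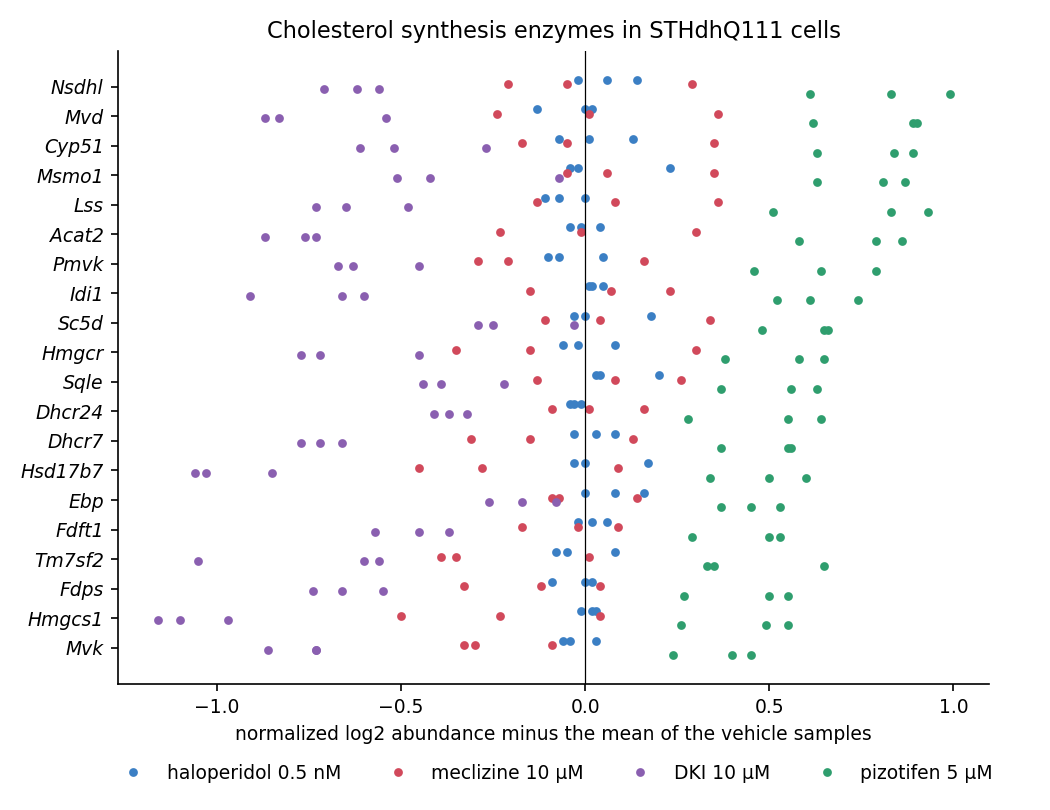
Normalized log2 abundance of 20 cholesterol synthesis enzymes minus the mean of the vehicle samples, with 1 point per sample for haloperidol, meclizine, DKI and pizotifen. DKI samples lie mostly below 0 and pizotifen samples above it, with a median difference of 0.53 between meclizine and DKI and of -0.62 between meclizine and pizotifen.

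Sterol handling and phospholipid genes added a few calls. Soat1, which esterifies cholesterol, and the lysosomal cholesterol carrier Npc1 rose by 0.41 and 0.37, and Abca1, which exports cholesterol, fell by 0.63, a call that was lost without meclizine replicate 1 (-0.52, adjusted p = 0.0632). Of 15 genes of phosphatidylcholine and phosphatidylethanolamine synthesis, 3 rose and 1 fell. Choline kinase Chka, Pemt and Phospho1 rose by 0.57, 0.55 and 0.51, and Pcyt1b fell by 0.49. Pcyt2, the enzyme meclizine is known to inhibit, stood at 9.57, 9.76 and 9.79 in vehicle and at 9.56, 9.89 and 9.7 with meclizine. The difference was 0.01 (95% interval -0.18 to 0.19, adjusted p = 0.975), whereas meclizine was 0.44 above DKI (adjusted p = 0.00194) and 0.44 below pizotifen (adjusted p = 0.00058). These RNA levels do not measure the activity of the enzyme.

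Meclizine and DKI, both at 10 µM, differed in 1087 genes (8.11%), and meclizine and pizotifen, at 10 and 5 µM, in 2177 (16.2%). P-values were adjusted over all genes in each of these 2 comparisons. Stress regulators were called higher with meclizine than with pizotifen in 10 of 19 members, beside 8.26% of all genes, and lower in 1, and they were lower than with DKI in 4, beside 4.3% of all genes that were lower than with DKI. Their list mean was 9.3, 9.1 and 9.21 with meclizine, 9.56, 9.28 and 9.43 with DKI and 8.88, 8.86 and 8.88 with pizotifen. With cyproheptadine, given at 10 µM as meclizine was, the list mean was 9.02, 9.16 and 9.15. Its difference from meclizine was not tested. Trib3 was 1.18 higher than with pizotifen (adjusted p = 9.29e-05), while the difference from DKI was -0.32 (95% interval -0.75 to 0.11, adjusted p = 0.406). Genes lower with meclizine than with DKI include Slc3a2 (-1.13, adjusted p = 4.73e-06), Cth (-0.65) and Atf3 (-0.64). DKI replicate 1 lay more than 1 below both other DKI samples in 9 genes, and without it 316 genes were called between the 2 compounds, beside 583 without meclizine replicate 2 and 709 without meclizine replicate 3. With only the meclizine and DKI samples in the fit, 14 genes were called, and 271 when the collection day was left out as well, so most of the calls between these compounds rest on the fit to all samples. In the former fit the day term takes up meclizine replicate 1, since DKI has no sample of day 1. The count against pizotifen was 1224 without meclizine replicate 1, 1087 without meclizine replicate 3 and 1403 without pizotifen replicate 1. Against pizotifen, which was given at another dose, replication and mitosis genes were lower in 15 of 24 members, beside 7.97% of all genes. Ribosomal proteins were higher than with pizotifen in 34 of 38, beside 8.26% of all genes. Ctgf, a matrix gene driven by YAP, stood at 9.04, 9.88 and 8.64 with meclizine and 10.63, 10.42 and 10.57 with pizotifen.

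Over all 13409 genes, the change of meclizine from haloperidol had a Pearson correlation of 0.845 with the change of DKI from vehicle, 0.639 with that of cyproheptadine and 0.521 with that of pizotifen. The changes compared share no sample. For the other compounds the value lay between 0.059 and 0.393, and for vehicle-treated STHdhQ7 cells it was -0.028. With fingolimod phosphate in place of haloperidol, DKI stood at 0.822, cyproheptadine at 0.618, pizotifen at 0.455, the other compounds between -0.136 and 0.294, and STHdhQ7 at 0.193. Over the genes with a mean of 6 or more STHdhQ7 stood at 0.091, so the sign of its value depends on the control and on the genes taken. These are descriptions across genes, which are not independent replicates, and all samples share a cell source and a sequencing design. Between STHdhQ7 and STHdhQ111 vehicle samples 7483 genes were called, and 2161 of them were also called between meclizine and haloperidol. These are 28.9% of the former, beside 25.7% of all genes called between meclizine and haloperidol, and 62.7% of the latter, beside 55.8% of all genes called between the lines. Of the shared genes, 53.8% had the same direction in both comparisons.

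Few genes for receptors that meclizine is known to bind, or for their near relatives, could be tested. Of 13 receptor genes on the list 11 were measured, and only 4 reached the minimum level. Hrh1, the histamine H1 receptor, stood at 1.1, 1.17 and 1.18 in vehicle and at 1.18, 1.13 and 1.09 with meclizine, near the low end of the genes tested. Tmem97, the sigma-2 receptor, rose by 0.24 and lost its call without meclizine replicate 2 (0.12, adjusted p = 0.271). Huntingtin itself, Htt, was at 8.1, 8.1 and 7.92 in vehicle, 7.99, 8.14 and 8.04 with haloperidol and 7.71, 7.89 and 7.81 with meclizine. All meclizine samples lay below the control samples, with a change of -0.24 (SE 0.0768, adjusted p = 0.0176), and the mean in STHdhQ7 vehicle cells was 9.11. Without meclizine replicate 1 the difference was -0.19 (adjusted p = 0.131).

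Several leading genes overlap others in the annotation or have close copies. Slc7a11, Cth and Ugt1a6a share their strand with other annotated genes, and Ddit3, Txnip and Hmgcs1 overlap genes on the other strand. Prl2c2, which encodes a growth factor of the prolactin family, has near-identical relatives. It rose from 6.68, 6.0 and 6.67 to 8.24, 8.37 and 8.26, and Ugt1a6a, a glucuronosyltransferase, rose by 1.56, but which copy the reads came from is uncertain. The corneodesmosin gene Cdsn, an adhesion gene, and Gadd45a, a stress gene, rose by 2.29 and 1.48. Where strand was not used in counting, reads of a gene and its antisense partner cannot be told apart.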

How the data were processed

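RNA was measured in 48 samples, of which 3 with meclizine and 3 with vehicle are compared here. Per the labels and the methods, the authors sequenced directional polyA libraries, trimmed reads with Trimmomatic 0.36, aligned to GRCm38.p5 with GENCODE M12, quantified with RSEM and normalized with DESeq2. The deposited table holds 1 normalized log2 abundance per gene and sample, from -2.34 to 18.62, with no named transformation. Depth is unknown, so no counting error is given, and rows without a symbol were left out of the tests.

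Genes with a symbol and a mean of at least 1 were tested (13409 of 18178). With limma 3.58.1 in R 4.3.3, conditions and the collection day were fitted with 30 residual degrees of freedom and a variance trend. P-values were two-sided and adjusted by Benjamini-Hochberg over all genes tested. The replicate number marks the collection day in the labels of meclizine, vehicle, haloperidol and pizotifen, so the day is the block. Replicate 1 of DKI and of cyproheptadine is labelled day 3. Same-day residuals of meclizine and haloperidol correlated at 0.263, 0.184 and 0.148, and of meclizine and vehicle at -0.254, 0.043 and -0.048. The fit was tested on simulated data. Positions come from GENCODE annotation of GRCm38, promoters from RefSeq. Figures were drawn with matplotlib 3.10.9.

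Genes named are the 10 largest rises and falls called against both controls, provided their mean reached 6 and every meclizine sample lay on 1 side of its day's controls, up to 4 members of each list, and a few chosen by role. Other members were named after their values were seen. The members and lists were chosen with earlier results of these data known. No pseudocount was used, since the values are logarithms.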

Additional observations from a re-analysis of the deposited data

Results flagged for a closer look

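Rows without a gene symbol were left out of the comparisons of the report. Fitted in the same way, 146 of 2205 such rows were called for meclizine against vehicle and 143 against haloperidol, and 0 were called by limma between haloperidol and vehicle. Among the genes tested in the report the shares called were 26.8% against vehicle and 25.7% against haloperidol, so these rows were called less often. They are listed because the comparisons did not use them.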

How the results depend on the processing

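The counts against vehicle, haloperidol and both kept within 1.5 times of those reported under other filters, scalings and terms, apart from the fold requirement. With a fold of at least 1.5 required as well, 216 genes were called against vehicle and 192 against both controls. Leaving out 1 replicate each in turn gave 2520 to 3253 genes against vehicle, 2440 to 3163 against haloperidol and 1948 to 2628 against both. Between meclizine and DKI these counts were 316 to 1549, and between meclizine and pizotifen 1087 to 2453. Between haloperidol and vehicle they were 0 to 34, and 1 gene was called with no minimum level and 1 with only the compared samples in the fit. With only the compared samples, 14 genes were called between meclizine and DKI, in a fit whose day term takes up the meclizine sample of day 1, from which DKI has none. Without the day term those samples gave 271, an alternative added after seeing the data. With no replicate block (no collection day term) the counts were 3778 against vehicle, 3679 against haloperidol and 2990 against both, and with the replicate number as block 3609, 3477 and 2851, so the pairing moved no count by 1.5 times. Fingolimod phosphate in place of haloperidol gave 2215 genes against both controls. Of the checks on named genes, 4623 kept their call, 17 gained and 168 lost it, and 0 reversed. List counts without the doubted libraries, with quantile normalization and with the collection time were added after seeing the data. The depth is unknown and limits what can be said of genes with low values.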
